A study of Mus musculus with 8 samples.

Results

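The genes described here are 10 mechanical stress genes of the muscle sarcomere, chosen by symbol from a table of 54532 genes measured in mouse atria. They are the muscle ankyrin repeat genes Ankrd1, Ankrd2 and Ankrd23, the LIM genes Csrp3, Fhl1 and Fhl2, the Xin genes Xirp1 and Xirp2, the titin-cap gene Tcap, and the muscle RING ligase gene Trim63. Each symbol stood on 1 gene identifier, and all 10 were among the 18033 genes with enough counts to be tested. The data were RNA sequencing read counts from 8 libraries. The KO group (4 libraries) came from Chd4flox/flox mice given AAV9:Nppa-Cre at postnatal day 2. The control group (4 libraries) came from Chd4flox/flox mice given AAV9:Nppa-EGFP on the same day. Both vectors thus used the Nppa promoter, which is active in atrial muscle, in mice with the floxed alleles. Cre was given to KO alone and EGFP to control alone, so an effect of either cannot be told apart from loss of Chd4. Tissue was right and left atria with all their cell types, and the age at collection was not given in the sources used here.

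Stretch and load act on the sarcomere through titin, the giant spring protein, and through the Z-disc where titin is anchored. Proteins at these places carry load, and several also travel to the nucleus and adjust transcription. Ankrd1 is among the best known transcripts of stretched or overloaded heart muscle, while Trim63 (MuRF1) marks sarcomere proteins for breakdown. The comparison asked how transcripts of these sensors stood in atria after a postnatal vector meant to delete Chd4, an ATP-dependent nucleosome remodeller of the NuRD complex.

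Total counts were 34002292 to 38228982 in KO libraries and 39804625 to 40588007 in control libraries. The targeted gene Chd4 (ENSMUSG00000063870) was at 169, 185, 187 and 199.6 CPM in KO, against 278, 297, 284 and 308 CPM in control, where CPM is the count scaled to a library of 1e6 counts with TMM factors. It fell by 0.66 on the log2 scale (SE 0.06, edgeR adjusted p = 1.86e-05), so its transcript was reduced but not absent in this bulk tissue. On a scale set by the heart muscle markers, described below, Chd4 was at -0.17 and not called (edgeR adjusted p = 0.154). Summed over 8 atrial cardiomyocyte markers, the level was 17851 to 24436 CPM in KO, against 32124 to 34872 CPM in control, and all 8 fell. The 6 markers of heart muscle in general summed to 39115 to 50631 CPM in KO, against 58229 to 65799.6 CPM in control, and 5 of the 6 fell. In bulk tissue, fewer cells of a type and less RNA per cell cannot be told apart. The 5 genes used to define skeletal muscle (Myh1, Myh2, Myh4, Myf6 and Pvalb) summed to 108 to 474 CPM in KO, against 445 to 543 CPM in control. All 12 listed skeletal muscle markers, which include genes also found in heart muscle, summed to 868 to 1577 CPM in KO, against 1408 to 1480.5 CPM in control, with 1 called lower and 11 not called. The ventricle-defining genes Myl2 and Irx4 summed to 3.6 to 66.1 CPM in KO, against 19.5 to 271 CPM in control, with the highest sum in control 1. All 6 listed ventricular markers summed to 1259.8 to 1534 CPM in KO, against 774 to 1475 CPM in control; of the 5 tested, Myl3 rose 2.45-fold (edgeR adjusted p = 0.0208) and 4 were not called. No listed marker was at 0 counts in all 8 libraries.

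Of the 10 genes, Fhl1 rose, Fhl2 and Trim63 fell, and 7 were not called in KO against control. The threshold for a call was 0.05 on the p of edgeR's quasi-likelihood test, adjusted over all 18033 tested genes. The called share was 30.0% of these genes, beside 27.9% of all tested genes, so the set as a whole was called about as often as the background. Among all tested genes, 14.8% were higher and 13.1% lower in KO. The counts of called genes in the lists below stand beside these shares. The median log2 fold change was -0.03 over the 10 genes and 0.01 over all tested genes. The same 3 genes had KO and control libraries that did not overlap, beside 29.2% of all tested genes. On a scale set by the 6 heart muscle markers, which was chosen after the data were seen and moved the median of all tested genes to 0.49, 8 of the 10 were called, 6 higher and 2 lower, beside 64.7% of all tested genes called on that scale, 62.6% higher and 2.07% lower. Fhl1 was again higher and Fhl2 and Trim63 again lower on that scale. The scale used the summed counts of the 6 markers, so it mainly followed Myh6, by far the largest of them. Myh6 was at 26991 CPM in KO, against 40488 CPM in control. Its log2 fold change was -0.59, beside a median of -0.30 over the 6 markers.

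**Figure D1:**
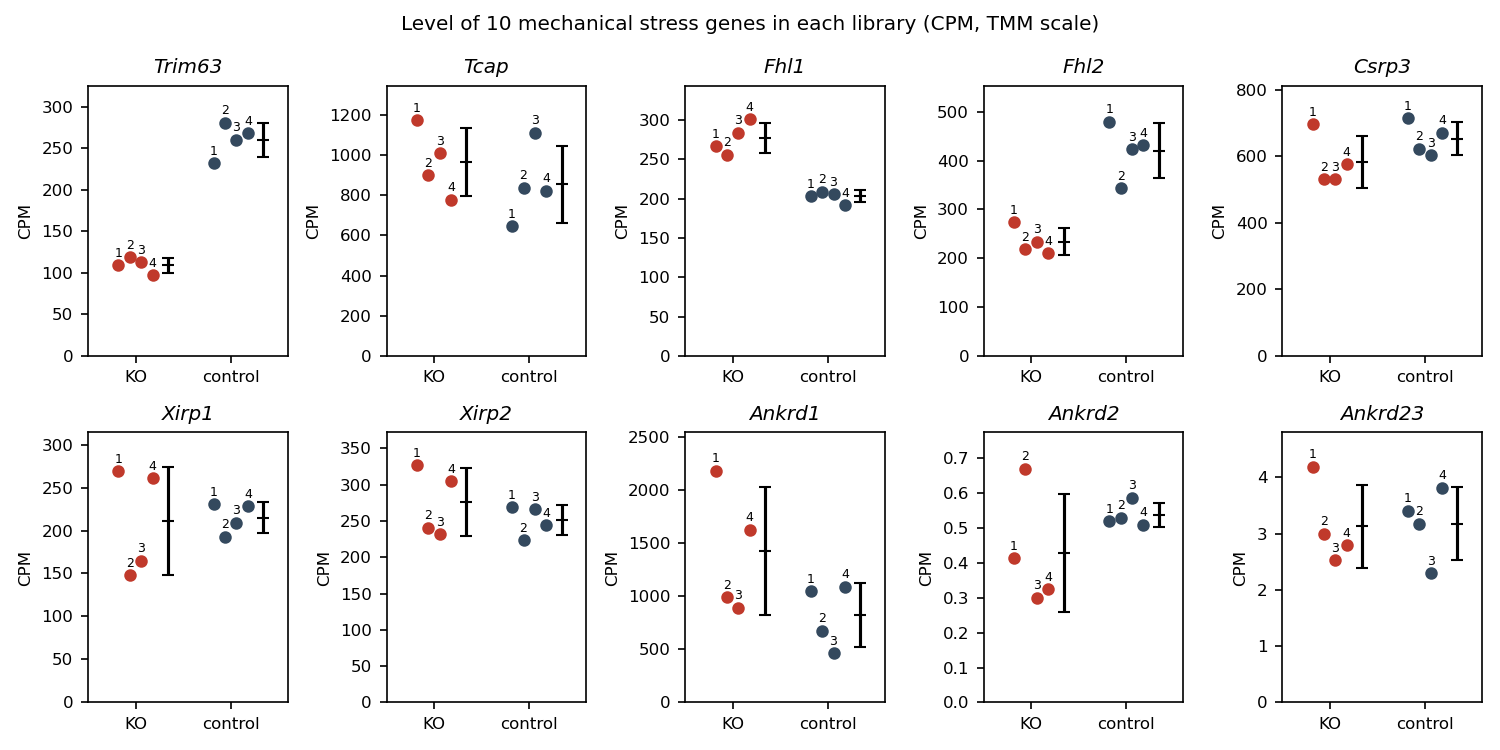
Level of each gene in CPM (y axis, from 0) in the 4 KO libraries (red, left) and the 4 control libraries (dark blue, right), with replicate numbers above the points and mean ± SD as black bars. Trim63 (97.3 to 119 CPM in KO, 232 to 281 CPM in control) and Fhl2 lay lower in every KO library, Fhl1 lay higher, and the other 7 genes overlapped between the groups.

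Trim63, the muscle RING finger ubiquitin ligase, showed the largest called change of the 10 genes (ENSMUSG00000028834, chromosome 4, 134315120 to 134329629, plus strand, GRCm38). Its level was 109, 119, 113 and 97.3 CPM in KO, against 232, 281, 260.3 and 268 CPM in control. Every KO library lay below every control library, and the spread within each group was small. Mean levels were 109 ± 9.06 CPM in KO, against 260.2 ± 20.7 CPM in control (SD, n = 4 each), a 2.38-fold fall (log2 fold change -1.25, SE 0.08, edgeR adjusted p = 6.3e-07). Trim63 is also a skeletal muscle gene. The 5 defining skeletal markers named above summed to 183, 474, 123 and 108 CPM in KO, against 445 to 543 CPM in control, and all 12 to 1386, 1577, 868 and 876 CPM in KO, against 1408 to 1480.5 CPM in control. Their part in the Trim63 result was not tested. Per 1000 CPM of the heart muscle markers, Trim63 was at 2.14 to 3.03 CPM in KO, against 3.75 to 4.72 CPM in control, so the groups also did not overlap on that scale. The share of all tested genes without overlap per marker level was not computed.

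Trim54 (MuRF3), a microtubule-associated partner, fell to 76.5 ± 7.97 CPM in KO, against 89.4 ± 2.83 CPM in control (log2 fold change -0.22, edgeR adjusted p = 0.0342). That call was lost in 10 of 20 alternative settings, 6 of which left out 1 library (KO 2, KO 3, KO 4, control 2, control 3 or control 4, edgeR adjusted p = 0.0643 to 0.105). The direction turned on a scale set by the heart muscle markers, with a log2 fold change of 0.24. Trim55 (MuRF2), a titin-binding relative, was at 145 ± 18.7 CPM in KO, against 143 ± 23.6 CPM in control (log2 fold change 0.01, 95% interval -0.27 to 0.29, edgeR adjusted p = 0.953). Its direction turned in 8 of 20 settings, in none of which it was called, and on the heart muscle marker scale it was called higher (0.48). Divided by exon length and taken within a library, Trim63 made up 24.0%, 30.8%, 26.8% and 24.3% of the MuRF level in KO and 42.6%, 47.8%, 41.7% and 44.2% in control. These shares do not depend on how libraries were scaled, and the groups did not overlap.

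Of 16 other genes of muscle protein breakdown, 3 rose, 3 fell and 10 were not called (median log2 fold change 0.01). Fbxo32 (atrogin-1), the ligase usually measured beside Trim63 in muscle wasting, was at 162 ± 27.4 CPM in KO, against 186 ± 40.9 CPM in control (log2 fold change -0.20, 95% interval -0.60 to 0.21, edgeR adjusted p = 0.451), and its direction turned on the heart muscle marker scale (0.30). Fbxo30, a ligase known from muscle atrophy, rose 1.41-fold (edgeR adjusted p = 0.000873). The autophagy genes Gabarapl1 and Sqstm1 rose 1.31-fold and 1.28-fold (edgeR adjusted p = 0.0009 and 0.00117). Mstn, the muscle growth inhibitor myostatin, fell 2.01-fold to 1.13 ± 0.22 CPM in KO, against 2.27 ± 0.442 CPM in control (edgeR adjusted p = 0.00493); on the heart muscle marker scale it was not called.

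The sequence before the start of Trim63 is shown because it held the core letters GGAATG, the motif of TEAD factors, while the core letters of the T-box motif, AGGTGT, were absent from it. Promoter windows in RefSeq (GRCm38.p6) were matched for 8 of the 10 genes, 12 windows in all, and 250 bases before each start were searched on both strands. Tcap and Xirp1 had no matched window. Printed sequences run on the strand of the gene, and capitals mark the motifs found.

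Trim63, chr4:134314870-134315119, plus strand: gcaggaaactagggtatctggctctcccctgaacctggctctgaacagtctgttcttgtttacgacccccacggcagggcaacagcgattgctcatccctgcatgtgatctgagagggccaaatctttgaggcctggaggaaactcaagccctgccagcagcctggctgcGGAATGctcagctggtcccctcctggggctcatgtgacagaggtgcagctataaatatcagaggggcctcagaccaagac

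The motif covered bases 80 to 75 before the start. Among all 32851 promoter windows, 12.6% held GGAATG, 11.8% held AGGTGT and 1.47% held a CArG box, the motif of the serum response factor SRF, within the same 250 bases. Such a match is a description of letters, not of binding.

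Fhl1 and Fhl2, which encode proteins built of LIM zinc-finger domains, moved in opposite directions. Fhl2, a titin-binding protein of the sarcomere and a cofactor of transcription, fell to 274, 218, 234 and 211 CPM in KO, against 479.7, 344, 423 and 432 CPM in control. Fhl1, which sits at titin's spring region and takes part in stretch signalling, was higher, at 267, 256, 284 and 301 CPM in KO, against 203, 209, 206 and 192 CPM in control. In neither gene did the KO and control libraries overlap.

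Mean Fhl2 levels were 234 ± 27.9 CPM in KO, against 419.7 ± 56.3 CPM in control (SD, n = 4 each), a 1.79-fold fall (log2 fold change -0.84, SE 0.11, edgeR adjusted p = 0.000187). Mean Fhl1 levels were 277 ± 19.6 CPM in KO, against 203 ± 7.47 CPM in control, a 1.37-fold rise (log2 fold change 0.45, SE 0.06, edgeR adjusted p = 0.000268). Fhl2 (ENSMUSG00000008136) lies on chromosome 1 at 43123074 to 43196984, minus strand, and Fhl1 (ENSMUSG00000023092) on chromosome X at 56731787 to 56793346, plus strand. Because Fhl1 is X-linked, the Y-linked gene Ddx3y was read beside it: it was at 124, 0.72, 108 and 119 CPM in KO, against 0.858, 0.706, 105 and 106 CPM in control. With Ddx3y as a covariate, the log2 fold change of Fhl1 was 0.44 (edgeR adjusted p = 0.000784). Against controls 1 and 2 alone it was 0.41, and against controls 3 and 4 alone 0.45, both called. These pairs also differed in the prefix of the library name (15390 and 16301), so Ddx3y and prefix cannot be told apart within control. Per 1000 CPM of the heart muscle markers, Fhl2 was at 4.86 to 5.58 CPM in KO, against 5.78 to 7.76 CPM in control, and Fhl1 at 5.28 to 6.92 CPM in KO, against 2.92 to 3.54 CPM in control.

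The values of Fhl1 and Fhl2 were also taken as shares within each library, which do not depend on how libraries were scaled. These shares restate the same counts and are not separate support. Divided by exon length, Fhl2 made up 65.2%, 61.0%, 60.5% and 56.5% of the summed level of Fhl1 to Fhl5 in KO, against 81.2%, 75.2%, 78.7% and 80.4% in control. Fhl1 made up 32.5%, 36.5%, 37.6% and 41.1% in KO and 17.6%, 23.4%, 19.6% and 18.2% in control. No share of either gene overlapped between the groups, and per exon length Fhl2 was the larger of the pair in every library. Without division by length, Fhl2 averaged 45.1% in KO, against 66.5% in control, and Fhl1 53.4% in KO, against 32.4% in control. Fhl3 was at 7.48 ± 0.79 CPM in KO, against 6.34 ± 1.02 CPM in control and was not called (log2 fold change 0.24, edgeR adjusted p = 0.215). Fhl4, known from mouse testis, was at 0.407 ± 0.15 CPM in KO, against 0.779 ± 0.144 CPM in control; it was called lower (edgeR adjusted p = 0.0475), a call lost in 15 of 19 alternative settings. It was lost with any library but KO 2 left out (edgeR adjusted p = 0.0594 to 0.127). Fhl5 had too few counts to be tested.

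**Figure D2:**
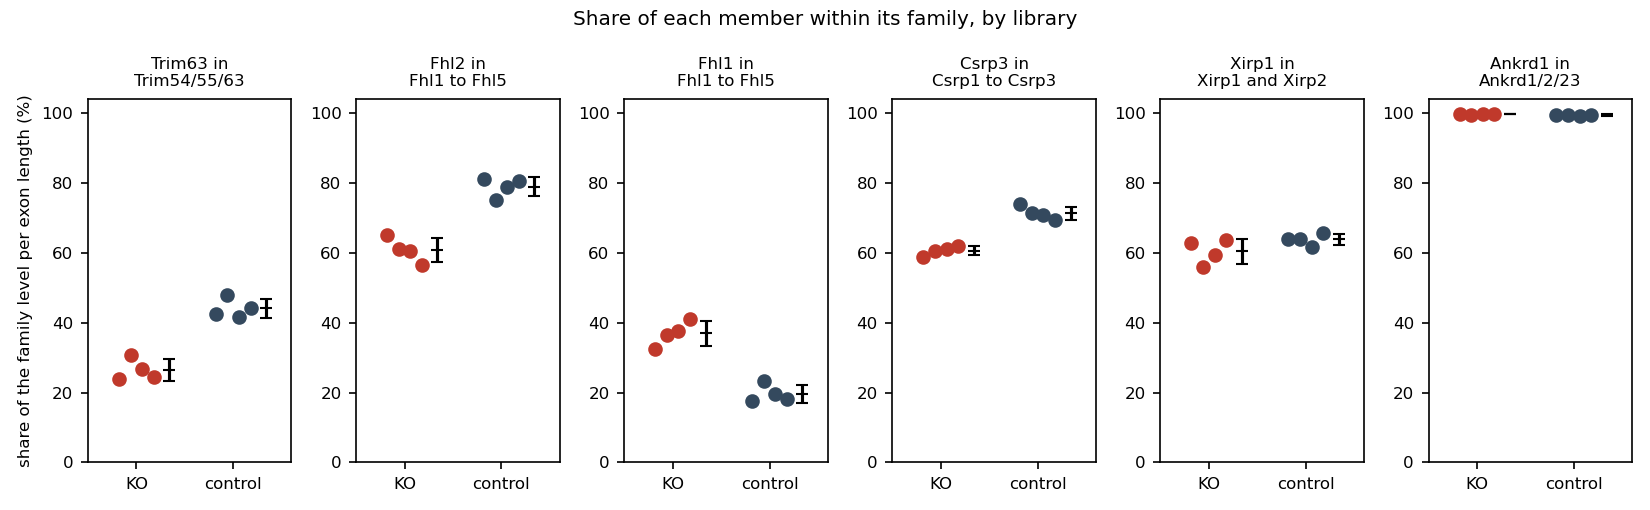
Share of a gene within its family in percent of the summed level per exon length (y axis) in KO (red, left) and control (dark blue, right); each point is 1 library and black bars give mean ± SD. The shares of Fhl2, Csrp3 and Trim63 lay lower and that of Fhl1 higher in every KO library, while the Xirp1 and Ankrd1 shares overlapped.

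The promoter windows of Fhl2 and Fhl1 are shown because 3 of the 4 windows of these genes held a CArG box, and no window of another matched member did. Among all promoter windows, 1.47% held one. In the first Fhl2 window the box covered bases 96 to 87 before the start, in the second bases 31 to 22, and in the first Fhl1 window bases 102 to 93. Capitals mark the box. The Fhl1 windows and the second Fhl2 window lay inside the gene spans given above, before internal starts. The sequence before the outer start of the Fhl1 span was not searched.

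Fhl2, first window, chr1:43196762-43197011, minus strand: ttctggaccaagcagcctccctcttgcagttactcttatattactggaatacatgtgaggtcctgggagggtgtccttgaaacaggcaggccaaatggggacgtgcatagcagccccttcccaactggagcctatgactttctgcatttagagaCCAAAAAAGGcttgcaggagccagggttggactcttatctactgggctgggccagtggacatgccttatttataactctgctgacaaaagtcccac

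Fhl2, second window, chr1:43163962-43164211, minus strand: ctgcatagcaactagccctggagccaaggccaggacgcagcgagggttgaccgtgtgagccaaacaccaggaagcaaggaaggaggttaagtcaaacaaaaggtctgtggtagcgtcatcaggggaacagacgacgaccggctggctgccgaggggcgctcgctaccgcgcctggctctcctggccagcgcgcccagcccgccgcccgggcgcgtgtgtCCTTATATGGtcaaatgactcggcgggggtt

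Fhl1, first window, chrX:56779433-56779682, plus strand: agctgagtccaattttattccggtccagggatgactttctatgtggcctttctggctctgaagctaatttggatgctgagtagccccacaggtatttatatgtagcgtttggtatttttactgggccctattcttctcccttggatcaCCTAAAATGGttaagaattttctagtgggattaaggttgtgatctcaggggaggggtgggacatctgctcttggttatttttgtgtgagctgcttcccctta

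The box was thus present both in the gene that fell and in the gene that rose. Srf itself, which binds this motif, fell 1.46-fold to 86.8 ± 10.9 CPM in KO, against 127 ± 17.9 CPM in control (edgeR adjusted p = 0.00462); on the heart muscle marker scale it was at -0.08 and not called. Of 11 tested genes of actin, MRTF and SRF signalling, 1 rose, 1 fell and 9 were not called (median log2 fold change -0.01). The gene that rose was Fhod1, a formin that assembles actin, at 24.1 ± 0.943 CPM in KO, against 19.0 ± 2.91 CPM in control (log2 fold change 0.34, edgeR adjusted p = 0.0294). Its call was lost without KO 2, KO 3, KO 4 or control 1 (edgeR adjusted p = 0.0526 to 0.0728), and the list's count was 1 without KO 2, KO 3 or control 1.

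Csrp3 (muscle LIM protein), a Z-disc protein whose loss in mice gives a dilated heart, was not called. It was at 697, 531, 531 and 577 CPM in KO, against 714, 623, 604 and 671 CPM in control. KO 2, KO 3 and KO 4 lay below all controls, whereas KO 1 lay inside the control range. The means were 584 ± 78.2 CPM in KO, against 653 ± 49.6 CPM in control (SD, n = 4 each), with a log2 fold change of -0.16 (95% interval -0.36 to 0.04, edgeR adjusted p = 0.219). Without KO 1 the log2 fold change was -0.26 and the gene was called (edgeR adjusted p = 0.0173). On the heart muscle marker scale its direction turned and it was called higher (log2 fold change 0.31, edgeR adjusted p = 0.00475). Csrp3 (ENSMUSG00000030470) lies on chromosome 7 at 48830398 to 48848033, minus strand.

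Its close relatives changed in opposite directions. Csrp1, an actin-bundling LIM protein found at high levels in smooth muscle, rose to 282, 188, 178 and 191 CPM in KO, against 92.5, 87.4, 88.4 and 106 CPM in control. The groups were far apart, and KO 1 stood highest. The rise was 2.24-fold (log2 fold change 1.16, SE 0.14, edgeR adjusted p = 0.000329). Csrp2, another LIM protein of smooth muscle, fell to 77.7 ± 5.5 CPM in KO, against 109.7 ± 9.49 CPM in control (log2 fold change -0.50, SE 0.07, edgeR adjusted p = 0.000381), but was at -0.02 and not called on the heart muscle marker scale. The 6 smooth muscle markers summed to 327 to 415 CPM in KO, against 381 to 629 CPM in control, with 2 called higher, 1 lower and 3 not called; their part in these results was not tested. Within a library and per exon length, Csrp3 made up 58.7%, 60.6%, 61.2% and 61.9% of the Csrp1 to Csrp3 level in KO and 73.8%, 71.3%, 70.7% and 69.3% in control. Over all 6 tested relatives of the 10 genes, 1 rose, 3 fell (Csrp2, Trim54 and Fhl4) and 2 were not called, with a median log2 fold change of -0.11. Only 2 were called without KO 3, KO 4, control 2, control 3 or control 4.

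**Figure D3:**
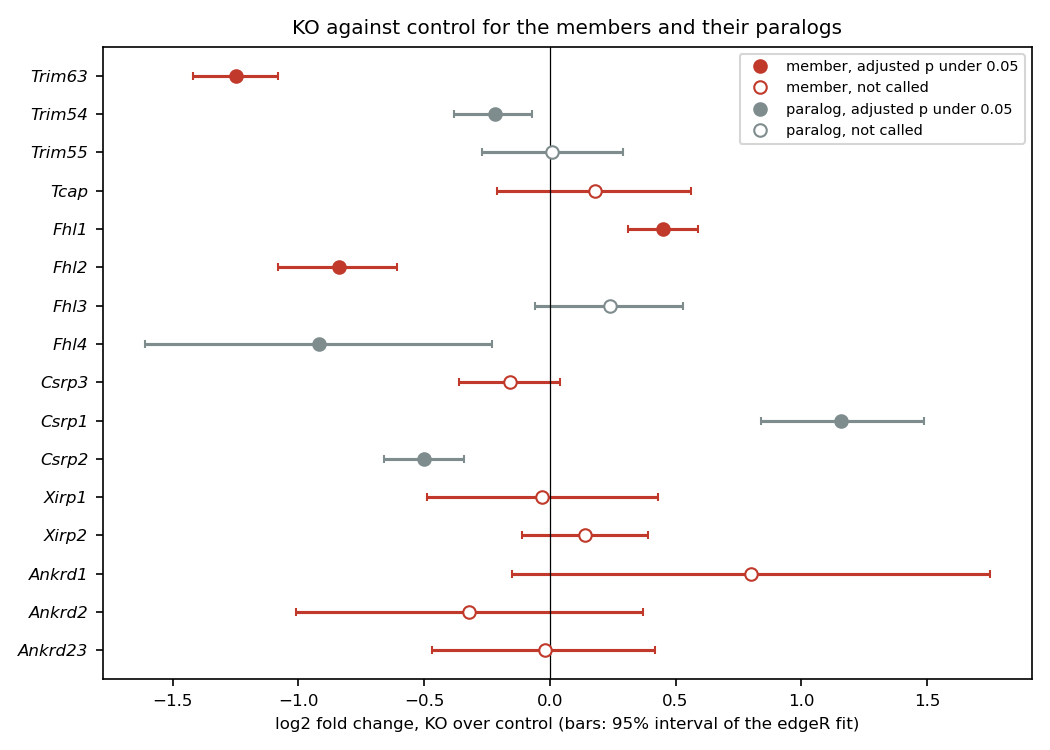
Log2 fold change, KO over control (x axis), with its 95% interval for the 10 genes (red) and their tested relatives (grey); filled points passed the edgeR test. The intervals of Fhl1, Fhl2 and Trim63 exclude 0, and that of Ankrd1 runs from -0.15 to 1.75.

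Ankrd1 (CARP), a titin-binding ankyrin repeat protein that also acts in the nucleus, had the highest mean CPM of the 10 genes in KO and, for its mean, the widest spread. It was at 2183, 993, 892 and 1626 CPM in KO, against 1050.0, 674, 465 and 1089 CPM in control. KO 1 and KO 4 lay above all controls, and KO 2 and KO 3 lay inside the control range. The means were 1424 ± 602 CPM in KO, against 819.7 ± 302 CPM in control (SD, n = 4 each; log2 fold change 0.80, SE 0.40, 95% interval -0.15 to 1.75, edgeR adjusted p = 0.192). The highest library was 2.45 times the lowest within KO and 2.34 times the lowest within control, and the difference between groups did not pass the test. Per 1000 CPM of the heart muscle markers, Ankrd1 was at 20.3 to 43.1 CPM in KO, against 7.98 to 17.0 CPM in control, without overlap. Csrp3, Fhl1, Xirp1 and Xirp2 also lay above control in every KO library by this measure. On the scale set by those markers, 62.6% of all tested genes were called higher. Ankrd1 was among them, with a log2 fold change of 1.26 (edgeR adjusted p = 0.0198). Ankrd1 (ENSMUSG00000024803) lies on chromosome 19 at 36111961 to 36120099, minus strand.

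The Ankrd1 promoter window is shown because it held the TEAD letters GGAATG at 2 places, bases 210 to 205 and 123 to 118 before the start, in capitals. This window lay inside the gene span given above, before an internal start. The sequence before the outer start of that span was not searched.

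Ankrd1, chr19:36119845-36120094, minus strand: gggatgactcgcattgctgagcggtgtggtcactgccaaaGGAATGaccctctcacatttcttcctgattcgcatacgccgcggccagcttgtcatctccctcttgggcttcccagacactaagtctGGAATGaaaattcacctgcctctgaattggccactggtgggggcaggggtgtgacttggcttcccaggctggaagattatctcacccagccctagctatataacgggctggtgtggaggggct

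The same letters stood once in the Trim63 window printed above and once, on the opposite strand, in the second Ankrd23 window, at bases 120 to 115. They were thus found beside a gene that fell and beside genes that were not called. AGGTGT was found in 1 of the 12 windows, the second of Csrp3, at bases 164 to 159. That window and the second Ankrd23 window also lay inside their gene spans, before internal starts.

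The other muscle ankyrin repeat genes were scarce in atria. Ankrd2, mainly a gene of slow skeletal muscle, had 14, 27, 11 and 12 counts in KO and 20, 21, 23 and 20 counts in control. That gave 0.413, 0.67, 0.3 and 0.325 CPM in KO, against 0.52, 0.529, 0.587 and 0.509 CPM in control. KO 2 lay above all controls and the other KO libraries below them. The 5 defining skeletal markers were also highest in KO 2 within KO, and their part in this value was not tested. The log2 fold change was -0.32 (95% interval -1.01 to 0.37, edgeR adjusted p = 0.491). Ankrd23 (DARP) was at 4.19, 3.0, 2.53 and 2.79 CPM in KO, against 3.41, 3.18, 2.3 and 3.82 CPM in control, with overlapping groups (log2 fold change -0.02, 95% interval -0.47 to 0.42, edgeR adjusted p = 0.95). Its value is uncertain, since 2109 of its exon bases are shared on the same strand with Gm42417, which held 1 count in control 3 and none elsewhere. Ankrd1 made up 99.5% to 99.8% of the family's level per exon length in KO and 99.2% to 99.5% in control. Ankrd2 (ENSMUSG00000025172) lies on chromosome 19 at 42036000 to 42045110, plus strand, and Ankrd23 (ENSMUSG00000067653) on chromosome 1 at 36530188 to 36536883, minus strand.

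Xirp1 and Xirp2 encode the Xin proteins, which bind actin filaments at the intercalated discs that join heart muscle cells. Xirp1 was at 269, 148, 165 and 261 CPM in KO, against 231, 193, 209 and 228 CPM in control. KO 1 and KO 4 lay above all controls and KO 2 and KO 3 below all of them. The means were 211 ± 63.1 CPM in KO, against 215 ± 17.8 CPM in control (SD, n = 4 each), with a log2 fold change of -0.03 (95% interval -0.49 to 0.43, edgeR adjusted p = 0.931). Its sign turned without KO 2, KO 3 or control 1, with log2 fold changes of 0.11, 0.07 and 0.00. Xirp2 was at 327, 241, 232 and 305 CPM in KO, against 269, 224, 266 and 244 CPM in control, and again KO 1 and KO 4 lay above all controls. Its log2 fold change was 0.14 (95% interval -0.11 to 0.39, edgeR adjusted p = 0.394). On the heart muscle marker scale both were called higher, Xirp1 with a log2 fold change of 0.43 and Xirp2 with 0.60. Reads of Xirp2 and of the antisense gene Gm13601, which overlap by 168 exon bases, may not have been told apart, because the strand setting was not given in the sources used here. Xirp1 (ENSMUSG00000079243) lies on chromosome 9 at 120013755 to 120023598, minus strand, and Xirp2 (ENSMUSG00000027022) on chromosome 2 at 67446002 to 67526614, plus strand.

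Ankrd1, Xirp1 and Xirp2 each stood higher in KO 1 and KO 4 than in KO 2 and KO 3, as did Csrp3, which Trim63, Fhl1 and Fhl2 did not. On a log2 scale, KO 1 and KO 4 stood 0.71 and 0.29 above the KO mean for Ankrd1, 0.40 and 0.36 above it for Xirp1, and 0.26 and 0.16 above it for Xirp2. KO 2 and KO 3 stood below the KO mean for all 3 genes. KO 1 also had the highest sum of heart muscle markers of the KO group, 50631 CPM, but KO 4, at 43467 CPM, did not stand apart from KO 3, at 43871 CPM. In the prefix of the library name, KO 1 (15386) differed from KO 2, KO 3 and KO 4 (15394). The part of the markers and of the prefix in this pattern was not tested.

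**Figure D4:**
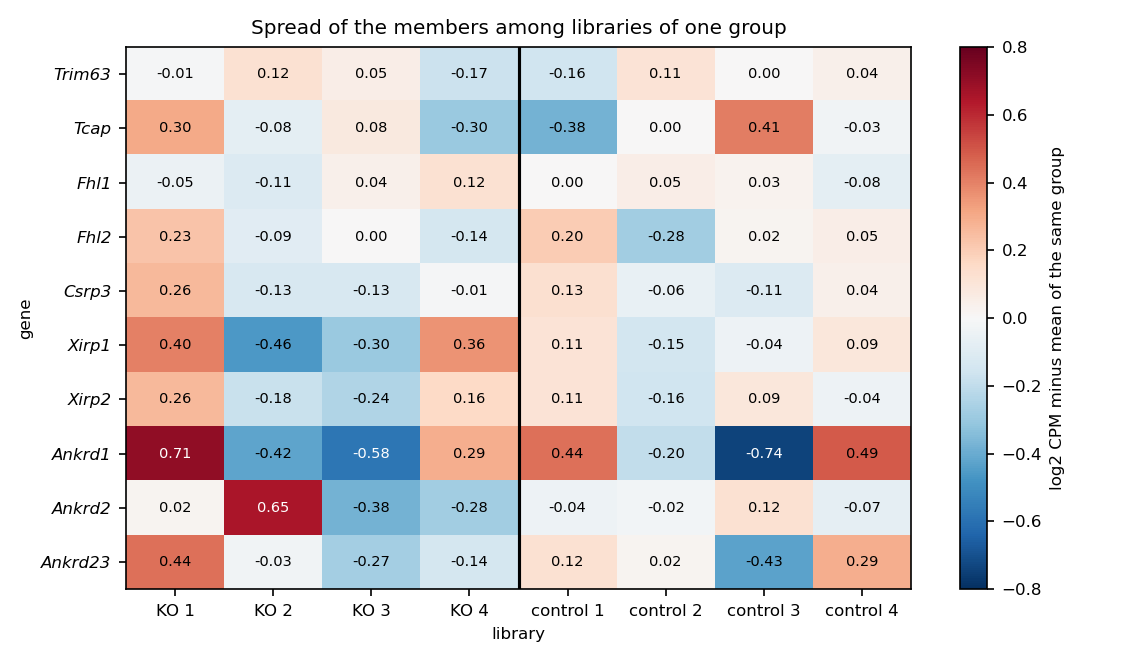
Heat map of log2 CPM minus the mean of the same group, printed in each cell, for the 10 genes (y axis) in each library (x axis, KO left and control right of the line); red cells lie above the group mean and blue cells below it. Ankrd1 and Xirp1 were spread widely in KO, with KO 1 and KO 4 high and KO 2 and KO 3 low, whereas Trim63 and Fhl1 were tight.

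Tcap (telethonin), which caps the end of titin in the Z-disc and binds Csrp3, overlapped between the groups. It was at 1173, 899.8, 1009 and 777 CPM in KO, against 646, 837, 1111 and 822 CPM in control. Its means were 965 ± 168 CPM in KO, against 854 ± 192 CPM in control (SD, n = 4 each), with a log2 fold change of 0.18 (95% interval -0.21 to 0.56, edgeR adjusted p = 0.488). Against controls 1 and 2 alone the log2 fold change was 0.36, and against controls 3 and 4 alone -0.03. These control pairs differed in Ddx3y level and in the prefix of the library name alike. On the heart muscle marker scale it was 0.63 and called (edgeR adjusted p = 0.0101). Tcap (ENSMUSG00000007877) lies on chromosome 11 at 98383811 to 98384953, plus strand.

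Among 25 tested partners of titin and the Z-disc, 3 rose, 7 fell and 15 were not called (median log2 fold change -0.01). Myoz2, a Z-disc protein that binds calcineurin, fell to 437 ± 44 CPM in KO, against 701 ± 45.4 CPM in control (edgeR adjusted p = 7.02e-05). Ttn itself was at 4039.6 ± 377 CPM in KO, against 5545 ± 434 CPM in control (log2 fold change -0.46, edgeR adjusted p = 0.00174); on the heart muscle marker scale its sign turned, at 0.02. Pdlim3, an actinin-binding LIM protein of the Z-disc, rose to 159 ± 13.4 CPM in KO, against 98.3 ± 13 CPM in control (edgeR adjusted p = 0.000209). The intermediate filament gene Des rose 1.34-fold (edgeR adjusted p = 0.00709) and the thick filament gene Mybpc3 1.48-fold (edgeR adjusted p = 0.0077). Pdlim3, Des and Mybpc3 were all the genes of this list that rose, whereas only some of the 7 that fell are named here.

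The list of YAP and TEAD targets, drawn from human tumours and cell lines, was taken as a readout of mechanical signalling through these factors. Ankrd1 belongs to the same signature and was left out of the list. Of the 20 tested genes of the list, 6 rose, 3 fell and 11 were not called (median log2 fold change 0.18). Tgfb2, a secreted growth factor, rose 2.25-fold to 58.3 ± 10.7 CPM in KO, against 25.8 ± 2.32 CPM in control (edgeR adjusted p = 6.93e-05). Crim1, a membrane protein that binds BMP ligands, rose to 138 ± 21.1 CPM in KO, against 82.5 ± 8.07 CPM in control (edgeR adjusted p = 0.00043), and the membrane repair gene Myof rose 1.34-fold (edgeR adjusted p = 0.000916). F3, tissue factor of the clotting cascade, fell 1.84-fold to 23.2 ± 1.62 CPM in KO, against 42.7 ± 5.88 CPM in control (edgeR adjusted p = 4.83e-05).

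Of the classical YAP targets, the matrix protein gene Cyr61 was at 65.3, 49.7, 33.6 and 55.7 CPM in KO, against 25.9, 32.3, 16.1 and 15.4 CPM in control. Every KO library lay above every control library, although KO 3 was close to control 2. It was called (log2 fold change 1.19, edgeR adjusted p = 0.0264), but the call was lost without KO 1, KO 2, KO 4, control 1, control 3 or control 4 (edgeR adjusted p = 0.052 to 0.0654). Ctgf was at 592 ± 147 CPM in KO, against 373 ± 154 CPM in control and was not called (log2 fold change 0.67, edgeR adjusted p = 0.166). It became called in 3 of 20 alternative settings, 1 of which left out a library, control 2 (0.97, edgeR adjusted p = 0.0257). Fibroblasts also express these genes. The 7 fibroblast markers summed to 6878 to 9076 CPM in KO, against 5939 to 6619.8 CPM in control, with 4 called higher, none lower and 3 not called. Endothelial markers summed to 1280.4 to 1462 CPM in KO, against 1157 to 1254 CPM in control (4 of 6 called higher, 1 lower). Macrophage markers summed to 344 to 495 CPM in KO, against 282 to 359 CPM in control, and epicardial markers to 605 to 747 CPM in KO, against 455 to 600.4 CPM in control (4 of 6 called higher, none lower, in each list). The part of these cell types in the results of the YAP and TEAD list was not tested.

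**Figure D5:**
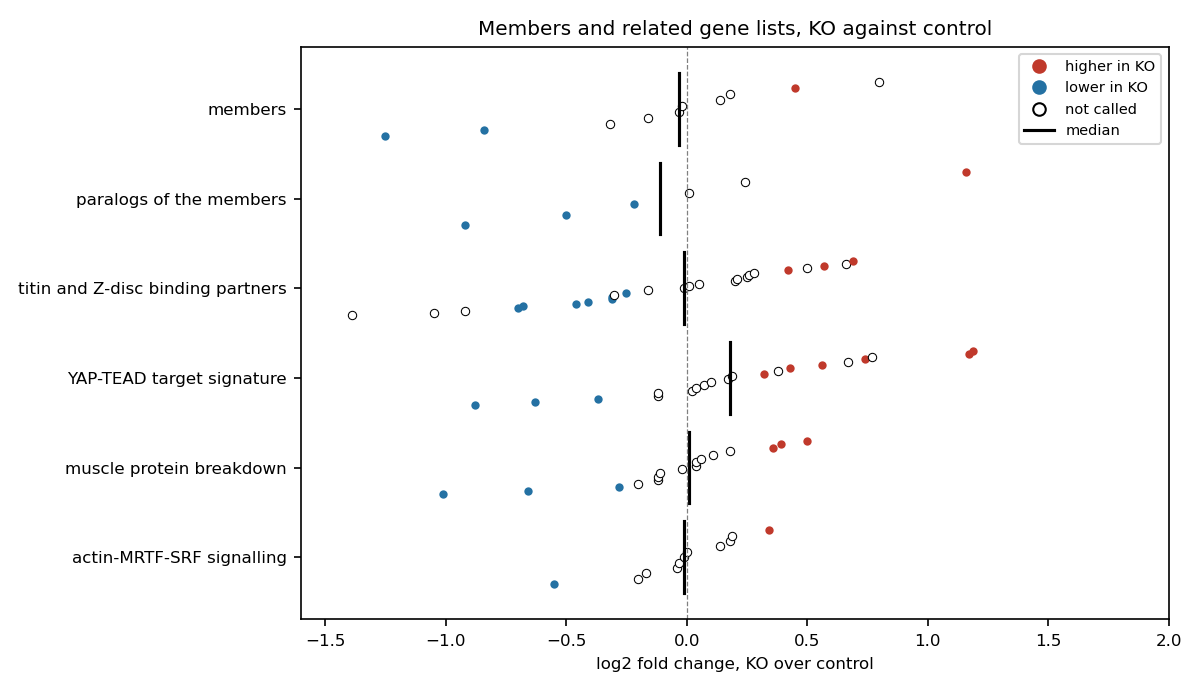
Log2 fold change, KO over control (x axis), of every tested gene among the 10 genes (top, named members) and in 5 lists of related genes (y axis); each point is 1 gene, called higher (red), called lower (blue) or not called (open), and the black bar is the median. Every list holds genes that moved in both directions, and in the 10 genes 1 rose, 2 fell and 7 were not called.

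Per length of exon, the 10 genes covered a wide range of levels. In RPKM, CPM per 1000 exon bases, Tcap was highest, at 1018 ± 178 in KO and 901 ± 203 in control, above 99.8% of tested genes in control. Ankrd1 (493 ± 208 RPKM in KO and 284 ± 105 RPKM in control) followed. Csrp3 stood next, at 219 ± 29.3 RPKM in KO and 244 ± 18.6 RPKM in control. Fhl2 stood at 123 ± 14.7 RPKM in KO and 221 ± 29.7 RPKM in control. The control ranges of Ankrd1, Csrp3 and Fhl2 overlapped, so their order in control was not resolved, whereas in KO these genes did not overlap. Trim63 was at 38.5 ± 3.19 RPKM in KO and 91.6 ± 7.28 RPKM in control, and Fhl1 was at 74.6 ± 5.28 RPKM in KO and 54.5 ± 2.01 RPKM in control. Fhl1 thus lay above Trim63 in every KO library and below it in every control library.

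Xirp1 was at 36.1 ± 10.8 RPKM in KO and 36.8 ± 3.05 RPKM in control, and Xirp2 at 23.1 ± 3.93 RPKM in KO and 20.9 ± 1.75 RPKM in control. In KO the Xirp1 range overlapped with those of Trim63 and Xirp2, and in control it overlapped with neither. Ankrd23 (1.16 ± 0.271 RPKM in KO and 1.18 ± 0.238 RPKM in control) and Ankrd2 (0.375 ± 0.149 RPKM in KO and 0.471 ± 0.0305 RPKM in control) closed the order without overlap, and in control they lay above 33.0% and 20.1% of tested genes.

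The genes most like Trim63 were sought by Pearson correlation of log2 CPM over the 8 libraries, among the 9695 genes averaging 10 CPM or more. As the 8 libraries form a KO and a control group, such a value holds the group difference and is given as a description. The closest were Trpm4, a cation channel opened by calcium (r = 0.995), Cdkn2aipnl (r = 0.995), the cadherin gene Cdh13 (r = 0.994), the pyruvate dehydrogenase kinase gene Pdk2 (r = 0.994) and Rapsn, known from the neuromuscular junction (r = 0.994). Trpm4 was at 24.1 ± 1.83 CPM in KO, against 41.6 ± 1.72 CPM in control, and Rapsn at 7.74 ± 0.778 CPM in KO, against 18.8 ± 0.808 CPM in control. On the heart muscle marker scale Cdkn2aipnl and Pdk2 were not called, and the direction of Cdh13 turned without a call.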

How the data were processed

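Libraries were made from messenger RNA of right and left atria. As deposited by the authors, the values were raw counts of reads, 1 column for each library. Tools named in the submitters' processing notes were STAR and DESeq2, and the build was mm10; counting tool, strand setting and annotation are not given in the sources used here. Of 54532 gene identifiers, 54495 were in GENCODE M21, which gave coordinates on GRCm38 and exon lengths.

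Genes were kept by filterByExpr (minimum count 10, minimum total 15), scaled by TMM and tested with edgeR 4.0.16 in R 4.3.3 by the robust quasi-likelihood test, KO over control, with no covariate and 6 residual degrees of freedom. Adjustment followed Benjamini and Hochberg, over 18033 genes. DESeq2 1.42.0 and limma-voom (limma 3.58.1) were alternatives, as were other scalings and filters, a block for replicate number, leaving out single libraries, and subsets of the controls. The limma-voom fit used sample quality weights, which give less weight to more variable libraries. On simulated data for KO against control, with 200 of 18033 genes changed, edgeR found 55.2% of the 1.5-fold changes and 100% of the 2-fold changes, while 4.49% of its calls were false. The simulation gave every gene the same dispersion (0.0204) and changed far fewer genes than were called here. These shares therefore do not carry over to genes with a wider spread, such as Ankrd1. A count of 3 in a library, the floor for a gene at 0, corresponded to 0.0744 to 0.0885 CPM.

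The 10 genes and the lists were chosen with earlier results of these data known. Text values went to the 10 genes, to up to 4 genes of each list with the smallest p, and to the 5 genes most like Trim63. A gene under this rule is not reported here by name. Trim55, Fhl3, Fbxo32, Ctgf, Cyr61, Des and Mybpc3 were named after their values were seen. Whether each sample was a separate mouse is not in the labels; the spread behind the p-values is that between these samples and may be technical. Within a group, chi-square per degree of freedom between libraries was 12.4 to 31.8, well above sampling noise, so none was counted as a copy. No prefix of a library name occurred in both KO and control, so prefix and group cannot be told apart. Promoter windows came from RefSeq (GRCm38.p6).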

Additional observations from a re-analysis of the deposited data

How the results depend on the processing

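Fhl1, Fhl2 and Trim63 were called in the same direction in all 20 alternatives, with log2 fold changes of 0.41 to 0.93, -0.93 to -0.37 and -1.30 to -0.77. Of 199 values of the 10 genes, 178 kept direction and side of the threshold, 6 kept direction and became called, and 15 turned sign, 2 of them called. Against controls 3 and 4 alone 1700 genes were called higher, and leaving out 1 library gave 3915 to 5301 called genes, 2032 to 2687 higher and 1877 to 2614 lower, with 3 to 4 of the 10 genes called, 1 higher and 2 to 3 lower.

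A scale set by the 6 heart muscle markers, added after seeing the data, moved the median of all genes by 0.48 and called 11666 genes, 11293 higher and 373 lower. It called 8 of the 10 genes, 6 higher. Chd4 was at -0.17 (edgeR adjusted p = 0.154). It turned Ankrd2 to 0.17, Ankrd23 to 0.45, Csrp3 to 0.31 (called), Xirp1 to 0.43 (called), Trim54 to 0.24, Ttn to 0.02, Fbxo32 to 0.30 and Cdh13 to 0.13, and it called 16 titin and Z-disc, 18 YAP-TEAD, 11 breakdown and 9 actin-MRTF-SRF genes. These calls are relative to that shift; the cause was not tested.

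Elsewhere, Ankrd23 turned to 0.05 with library totals, 0.01 against controls 3 and 4, and 0.07, 0.03, 0.01 and 0.08 without KO 3, KO 4, control 1 or control 4 (lowest -0.20, without KO 1). Xirp1 turned to 0.04 with library totals, and to 0.11, 0.07 and 0.00 without KO 2, KO 3 or control 1. Tcap turned to -0.03 against controls 3 and 4. Trim55 turned to -0.18 against controls 3 and 4, -0.08 with Ddx3y as a covariate, -0.01 by limma-voom, and -0.04, -0.01, -0.01, -0.02 and -0.07 without KO 1, KO 3, KO 4, control 1 or control 2. Csrp3 was also called by limma-voom (-0.26, adjusted p = 0.0206). Called relatives numbered 2 with library totals, and 2 against either control pair, and 2 to 3 with 1 library left out. The titin list had 6 calls against controls 3 and 4 (7 to 13 with 1 library left out), the YAP-TEAD list 5 against controls 1 and 2 (7 to 10), the breakdown list 5 to 6 with 1 library left out, and the actin-MRTF-SRF list 4 with library totals and 1 against controls 1 and 2 (1 to 3). The Fhl1 share differed by 21 points without division by length, beside 17.2 points with it. Causes of these changes were not tested; subsets also hold fewer samples.

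Same-numbered libraries correlated at -0.0153, 0.303, -0.0563 and 0.105 in their deviations, not all above 0.1, so the numbers were not taken as pairs; KO 1, KO 3 and KO 4 correlated best with another number. With the replicate block, Ankrd1 was called (0.78, edgeR adjusted p = 0.000687), giving 2 of the 10 genes higher, and 2 relatives were called.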
